A study of Mus musculus with 15 samples.

Results

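Of the 10 genes that mark intestinal stem cells or are known targets of Wnt signalling (Lgr5, Ascl2, Olfm4, Smoc2, Axin2, Ephb2, Ephb3, Sox9, Myc and Ccnd1), Myc and Ccnd1 were higher and Smoc2 and Sox9 were lower in the cecum of antibiotic-treated mice than of vehicle-treated mice. Ascl2 and Ephb2 did not pass the test, and Lgr5, Olfm4, Axin2 and Ephb3 were too low to be tested. The 10 genes were taken by symbol from the 45808 rows of the expression table, and each symbol had a row. The values are FPKM, reads scaled to transcript length and to a depth for each library, so levels can be compared between genes of different length.

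The mice were C57BL/6, labelled as 20 weeks of age, and all were wild type. Antibiotic-induced microbiome depletion (AIMD) was brought about by ampicillin, vancomycin, metronidazole, neomycin and amphotericin B, gavaged 2 times a day for 30 days, and vehicle mice were gavaged with water. There were 7 AIMD and 8 vehicle ceca, 1 library per animal. RNA came from the whole cecum after its content was removed, so crypt base cells were measured together with the rest of the epithelium and with muscle, stroma and immune cells.

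The intestinal epithelium is renewed from stem cells at the base of the crypts. Wnt ligands bind Frizzled and Lrp receptors there and keep beta-catenin from being destroyed, and beta-catenin then switches on target genes together with TCF factors. R-spondins, through Lgr receptors, strengthen the signal, and Axin2, Nkd and Rnf43 form feedback that limits it. Notch signalling keeps crypt cells from becoming secretory cells, and BMP signalling rises away from the crypt base, where it restrains stem cell genes.

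Reads assigned to genes, recovered from the FPKM values, ranged from 8870133 to 18469530 in AIMD mice and from 4456166 to 12933765 in vehicle mice. Vehicle mouse 8 stood apart in its smooth muscle markers. Its summed FPKM of 7 smooth muscle markers (Acta2, Myh11, Des, Tagln, Actg2, Cnn1 and Synm) was 3050 against 523 to 1390 in the other vehicle mice. The mice of both groups also fell on separate sides of a clock-gene axis. Arntl, a core clock gene, was at 12.5 to 20.7 FPKM in AIMD mice 1 to 3 and vehicle mice 1 to 4 (the high Arntl mice) and at 4.00 to 9.90 FPKM in AIMD mice 4 to 7 and vehicle mice 5 to 8 (the low Arntl mice). The labels give no time of sacrifice, and both groups had mice on both sides.

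Lgr5 and Olfm4 were near the lower end of detection. Lgr5 (chromosome 10, 115450311 to 115587780, minus strand, GRCm38), an R-spondin receptor and the classic marker of cycling crypt stem cells, was at 0.152 FPKM in the lowest AIMD mouse, 0.229 at the median and 0.297 in the highest. In vehicle mice its lowest, median and highest levels were 0.159, 0.251 and 0.342 FPKM. The groups overlapped over nearly their whole range, and each mouse had only 9 to 41 Lgr5 reads. The difference on the log2(FPKM + 0.5) scale was -0.04 (two-sided exact permutation test over 6435 splits of the 15 mice, p = 0.438), and its 95% interval from limma without a filter on low values was -0.18 to 0.10. The added 0.5 FPKM exceeded the level of Lgr5 itself, so this interval understates the range of changes that the reads allow. In bulk tissue, fewer cells of a type and less RNA per cell cannot be told apart, here and for every gene below.

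Olfm4 (chromosome 14, 79984081 to 80023139, plus strand), a secreted glycoprotein that marks stem cells of the small intestine, was listed at 0 in all 7 AIMD mice and in 7 of 8 vehicle mice. Vehicle mouse 7 had 0.186 FPKM, or about 4 reads, a count that rests on a transcript length inferred from the values. Axin2 (chromosome 11, 108920349 to 108950783, plus strand), a scaffold of the beta-catenin destruction complex and a direct Wnt target, ranged from 0.284 to 0.727 FPKM in AIMD mice (median 0.501) and from 0.313 to 0.638 FPKM in vehicle mice (median 0.441). Neither group was set apart, and the log2 difference of Axin2 was 0.08 (exact permutation p = 0.486). Ephb3 (chromosome 16, 21204755 to 21223305, plus strand), a receptor for membrane-bound ephrins that helps keep cells at their place in the crypt, ranged from 0.248 to 0.795 FPKM in AIMD mice (median 0.414) and from 0.219 to 1.00 FPKM in vehicle mice (median 0.354). Its highest value was in vehicle mouse 2, and the log2 difference was 0.12 (exact permutation p = 0.483).

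**Figure D1:**
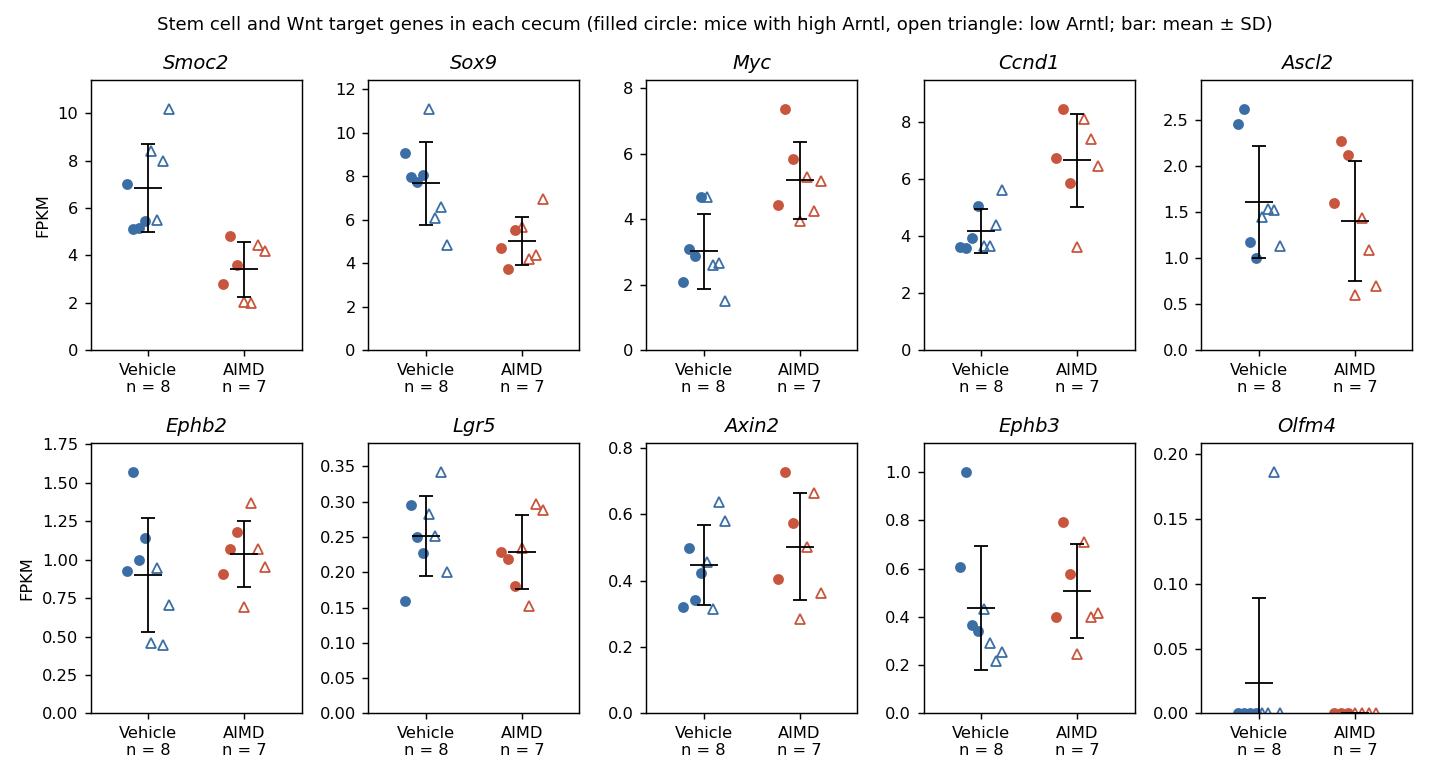
FPKM of the 10 stem cell and Wnt target genes in each cecum, 1 panel per gene with its own vertical axis. Each point is a mouse (8 vehicle in blue, 7 AIMD in red, filled circles for high Arntl and open triangles for low Arntl mice), and the bars give mean ± SD. The Smoc2 points of the groups do not overlap, Sox9 sits lower and Myc and Ccnd1 sit higher in AIMD mice with some overlap, and the other 6 genes overlap widely between groups.

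The 6 genes that reached 0.5 FPKM in at least 7 mice were tested with limma together with all 11983 genes that did so, with Benjamini-Hochberg adjustment over all of them. Of these 6, 2 were called higher and 2 lower in AIMD mice at an adjusted p under 0.05. Among all tested genes, 19.4% were called higher and 16.7% lower, so calls in either direction were common in this comparison. The median log2 fold change was -0.01 over the 6 genes and 0.01 over all genes tested. With no filter on low values, where limma called 9.9% of 24279 genes higher and 7.47% lower, the same 2 genes rose, the same 2 fell, and the other 6 of the 10 did not pass.

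Smoc2 (chromosome 17, 14279506 to 14404790, plus strand) encodes a secreted calcium-binding matrix protein and belongs to the expression signature of Lgr5-positive stem cells. Its levels in AIMD mice were 1.97 FPKM at the lowest, 3.59 at the median and 4.83 at the highest, and in vehicle mice 5.12, 6.26 and 10.2 FPKM. Every AIMD mouse lay below every vehicle mouse, and Smoc2 was the only one of the 6 tested genes for which this held. Over all tested genes, 3.3% had all AIMD mice below all vehicle mice and 5.26% had all above. The mean of Smoc2 was 3.41 ± 1.16 FPKM (SD, n = 7) in AIMD mice and 6.85 ± 1.87 FPKM (SD, n = 8) in vehicle mice, a 2.01-fold lower level. This was a log2 fold change of -0.93 (SE 0.20, 95% interval -1.34 to -0.52, limma adjusted p = 0.00166). The exact permutation p was 0.000155, the smallest that 6435 splits can give.

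Markers of stromal cells were read beside Smoc2. The summed FPKM of the 7 smooth muscle markers was 216 to 819 in AIMD mice (median 645) and 523 to 3050 in vehicle mice (median 1060). All 7 had lower means in AIMD mice, with a median log2 fold change of -0.92. Of these, 2 (Tagln and Synm) were called lower and 5 did not pass. The summed FPKM of 7 fibroblast markers (Col1a1, Col1a2, Col3a1, Dcn, Lum, Pdgfra and Pdgfrb) was 36.4 to 86.0 in AIMD mice and 28.3 to 121 in vehicle mice, with Lum lower and Col3a1 higher. None of these markers was at 0 in a group. Vehicle mouse 8 had the highest Smoc2, the highest smooth muscle sum and the highest fibroblast sum of the 15 mice. Without it the log2 fold change of Smoc2 was -0.85 (limma adjusted p = 0.00247). The part of stromal cells in the Smoc2 difference was not tested.

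**Figure D2:**
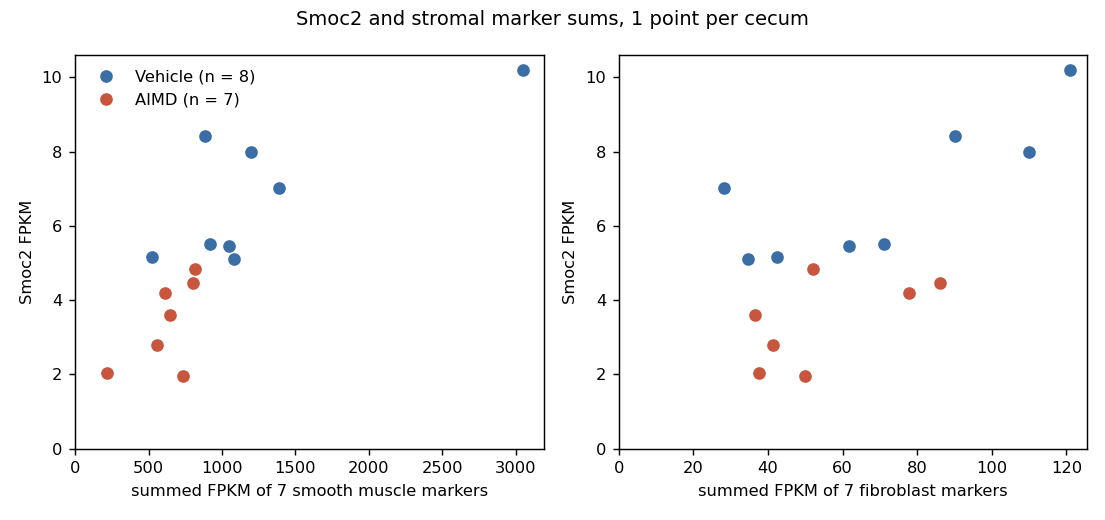
Smoc2 FPKM (vertical axis) against the summed FPKM of 7 smooth muscle markers (left) and of 7 fibroblast markers (right), 1 point per cecum, vehicle in blue and AIMD in red. All 7 AIMD points lie at or below 4.83 FPKM of Smoc2 and all 8 vehicle points at or above 5.12 FPKM, while the fibroblast sums of the groups overlap; the vehicle point at 3050 FPKM of smooth muscle markers is vehicle mouse 8.

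Sox9 (chromosome 11, 112782224 to 112787760, plus strand) encodes a transcription factor of crypt base cells that is needed for Paneth cells in the small intestine. Its lowest, median and highest levels were 3.73, 4.69 and 6.97 FPKM in AIMD mice and 4.81, 7.85 and 11.1 FPKM in vehicle mice. The ranges overlapped, but 4 of 7 AIMD mice were below all vehicle mice and 5 of 8 vehicle mice were above all AIMD mice. Mean Sox9 was 5.02 ± 1.11 FPKM (SD, n = 7) against 7.67 ± 1.92 FPKM (SD, n = 8), or 1.53-fold lower with AIMD. On the log2 scale Sox9 changed by -0.56 (SE 0.16, 95% interval -0.89 to -0.22, limma adjusted p = 0.0126), and the exact permutation p was 0.00637. Of the markers shared with Paneth cells, Ang4, an antimicrobial angiogenin, was higher (13.8 ± 6.49 against 2.34 ± 0.940 FPKM; SD, n = 7 and 8). Mmp7, a matrix protease (2.45 ± 2.11 against 0.172 ± 0.247 FPKM), was also called higher and Mptx1 was called lower (0.600 ± 0.430 against 1.86 ± 0.749 FPKM; SD, n = 7 and 8). Mmp7 reached 0.5 FPKM in 8 mice, all 7 AIMD mice among them, and Mptx1 in 11, all 8 vehicle mice among them. Both met the filter through the group where they were high, so their calls are no support for a difference. The other 3 tested markers of that list, Lyz1, Defa24 and Itln1, did not pass, and Defa17 was too low to test. The part of such cells in the Sox9 difference was not tested.

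Myc (chromosome 15, 61985391 to 61990374, plus strand), a transcription factor that drives growth and is switched on by beta-catenin in crypt cells, moved the other way. Its levels were 3.95, 5.18 and 7.38 FPKM at the lowest, median and highest in AIMD mice and 1.49, 2.76 and 4.69 FPKM in vehicle mice. Of the AIMD mice, 4 of 7 were above all vehicle mice, and 6 of 8 vehicle mice were below all AIMD mice. The exceptions were vehicle mice 4 and 5, at 4.68 and 4.69 FPKM. Mean Myc was 5.19 ± 1.17 FPKM (SD, n = 7) in AIMD mice and 3.02 ± 1.14 FPKM (SD, n = 8) in vehicle mice, 1.72-fold higher with AIMD. On the log2 scale Myc changed by 0.73 (SE 0.19, 95% interval 0.33 to 1.14, limma adjusted p = 0.00704), and the exact permutation p was 0.00342.

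Ccnd1 (chromosome 7, 144929931 to 144939925, minus strand) encodes cyclin D1, which with Cdk4 or Cdk6 carries cells into the cell cycle. It was at 3.60, 6.71 and 8.45 FPKM at the lowest, median and highest in AIMD mice and at 3.57, 3.79 and 5.60 FPKM in vehicle mice. In 6 of 7 AIMD mice Ccnd1 was above every vehicle mouse, and AIMD mouse 4 was the exception at 3.60 FPKM. Mean Ccnd1 was 6.64 ± 1.62 FPKM (SD, n = 7) against 4.18 ± 0.771 FPKM (SD, n = 8), 1.59-fold higher with AIMD. The log2 fold change was 0.59 (SE 0.16, 95% interval 0.26 to 0.91, limma adjusted p = 0.00778), and the exact permutation p was 0.00497. Without vehicle mouse 8, whose Ccnd1 was the highest of the vehicle mice, the log2 fold change was 0.64 (limma adjusted p = 0.00376).

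Ascl2 (chromosome 7, 142966829 to 142969264, minus strand), a transcription factor that sets the stem cell programme downstream of Wnt, did not pass the test. Its lowest, median and highest levels were 0.596, 1.43 and 2.27 FPKM in AIMD mice and 1.00, 1.48 and 2.62 FPKM in vehicle mice. Each group held both high and low mice, and 8 to 65 reads stood behind a value. The log2 fold change was -0.18 (95% interval -0.64 to 0.28, limma adjusted p = 0.546), which leaves room for changes in either direction. Ephb2 (chromosome 4, 136647539 to 136835988, minus strand), the ephrin receptor whose level falls from the crypt base upward, was at 0.695, 1.07 and 1.37 FPKM in AIMD mice and at 0.448, 0.938 and 1.57 FPKM in vehicle mice. The vehicle mice spread more widely and enclosed all AIMD values. The log2 fold change of Ephb2 was 0.16 (95% interval -0.18 to 0.51, limma adjusted p = 0.451).

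The order of the mean levels differed between the groups. In vehicle mice Sox9 was highest (7.67 FPKM), followed by Smoc2, Ccnd1, Myc, Ascl2, Ephb2, Axin2, Ephb3, Lgr5 and Olfm4. In AIMD mice Ccnd1 was highest (6.64 FPKM), followed by Myc, Sox9, Smoc2, Ascl2, Ephb2, Ephb3, Axin2, Lgr5 and Olfm4. Over mice, the ranges of each neighbouring pair overlapped in the vehicle group, and in the AIMD group all overlapped except Lgr5 and Olfm4. Within single mice, of the 9 neighbouring pairs, 2 kept their order in all 8 vehicle mice and 4 in all 7 AIMD mice. With 1 mouse allowed to differ, the counts were 7 in the vehicle group and 5 in the AIMD group. The least steady pairs were Axin2 and Ephb3 in vehicle mice (5 of 8) and Myc and Sox9 in AIMD mice (3 of 7).

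Because the mice fell on separate sides of the clock-gene axis, the comparison was also made within each side. Among the 7 high Arntl mice, where 8.63% of all genes were called higher and 7.08% lower, Sox9 fell (log2 fold change -0.77, limma adjusted p = 0.0117), Myc rose (0.81, adjusted p = 0.0465) and Ccnd1 rose (0.72, adjusted p = 0.0232). Smoc2 was at -0.56 in these mice and did not pass (adjusted p = 0.0732). Among the 8 low Arntl mice, where 11.2% of all genes were called higher and 9.49% lower, Smoc2 fell (log2 fold change -1.26, limma adjusted p = 0.0125). In the low Arntl mice Sox9 (-0.36, adjusted p = 0.317), Myc (0.70, adjusted p = 0.0812) and Ccnd1 (0.48, adjusted p = 0.179) kept the direction of the whole comparison but did not pass. All 4 genes thus had 1 direction on both sides, and none differed between sides by the interaction of treatment and side (limma adjusted p from 0.993 to 0.998). Over all genes no interaction passed in limma, and 536 of 11983 (4.47%) had an unadjusted p under 0.05.

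Ascl2 and Ephb2 had opposite signs on the sides. The log2 fold change of Ascl2 was 0.18 in high Arntl mice and -0.42 in low Arntl mice (limma interaction adjusted p = 0.993). Ascl2 was 2.00 ± 0.356 FPKM (SD, n = 3) in high Arntl and 0.954 ± 0.383 FPKM (SD, n = 4) in low Arntl AIMD mice, and 1.81 ± 0.839 and 1.41 ± 0.186 FPKM (SD, n = 4 each) in the vehicle mice of those sides. With treatment in the model, the difference between sides was 0.48 on the log2 scale, higher with high Arntl, and it missed the threshold (limma adjusted p = 0.0820, beside 16.3% of all genes called). For Ephb2 the log2 fold change was -0.08 with high Arntl and 0.42 with low Arntl, with neither side past the threshold.

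**Figure D3:**
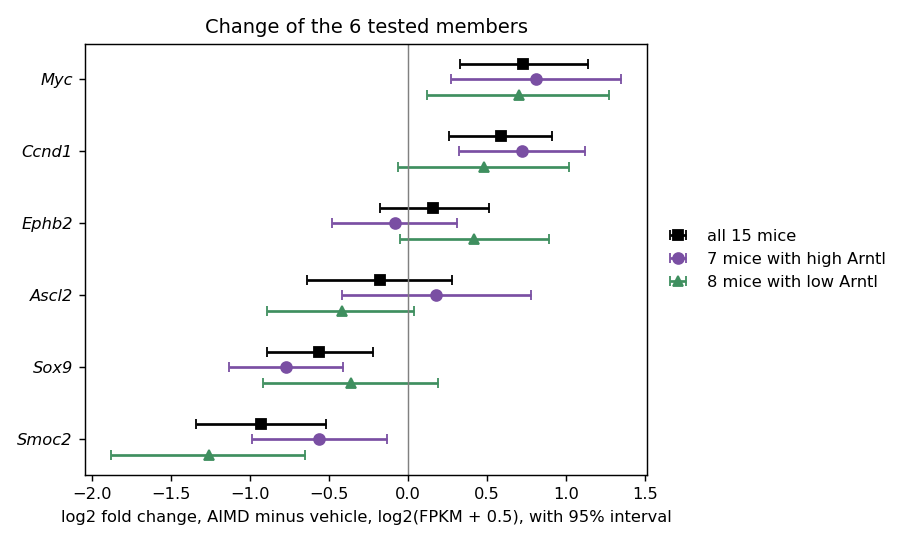
Log2 fold change of the 6 tested genes, AIMD minus vehicle, on the log2(FPKM + 0.5) scale, with 95% intervals from limma for all 15 mice (black squares), the 7 high Arntl mice (purple circles) and the 8 low Arntl mice (green triangles). Myc and Ccnd1 lie above 0 and Sox9 and Smoc2 below 0 in all 3 fits, whereas Ephb2 and Ascl2 change sign between the sides.

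No pair of the tested genes was related past the threshold from mouse to mouse. Over the 15 pairs of tested genes, with values centred within group and n = 15 mice, the median Pearson r was 0.12, 9 pairs were positive and no pair had an adjusted p under 0.05. The strongest relation was that of Sox9 and Ccnd1, with Pearson r = -0.57 (permutation p = 0.0257, adjusted p = 0.386) and Spearman rho = -0.67 (permutation p = 0.00736, adjusted p = 0.110). Its r was -0.48 without the 2 mice farthest from the median of Sox9 and -0.55 when values were also centred within the clock-gene sides. The genes whose values were most like those of Lgr5 over the 15 mice, by Pearson r of centred log2 values among 9812 genes with a mean of at least 1 FPKM, were Taf7 (r = 0.84), Zfp944 (0.82), Ints8 (0.81), Chpt1 (0.80) and Ctso (0.79). These 5 are the top of a long list and are given as a description, with 387 Lgr5 reads over all mice behind them.

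The rest of the Wnt pathway and of the crypt niche was counted in 14 lists holding 196 genes, of which 127 were tested. AIMD mice were higher for 19 of these and lower for 24 (18.9%), beside 19.4% higher and 16.7% lower among all genes tested, and 84 did not pass. With values scaled to the total FPKM outside the mitochondrial chromosome, 21 of these genes were higher and 18 lower, beside 2452 higher and 1488 lower over all genes, so the direction that held more calls in these lists depended on the scaling. The median log2 fold change over the 127 genes was -0.02. The counts of each list below stand beside the same shares of all genes tested, 19.4% higher and 16.7% lower.

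Ligands were sparse in this tissue. Of 21 genes for Wnt ligands and their secretion, 2 were tested. Wnt5a, a mainly non-canonical ligand, was at 1.51 ± 0.327 FPKM in AIMD and 2.12 ± 0.915 FPKM in vehicle mice and did not pass (limma adjusted p = 0.211). Wls, which carries Wnt proteins to the cell surface, fell from 9.36 ± 2.54 to 6.35 ± 1.14 FPKM (log2 fold change -0.50, limma adjusted p = 0.0240), a call that was lost without AIMD mouse 5 (adjusted p = 0.0584) and with total FPKM scaling (-0.43, adjusted p = 0.0981). In high Arntl mice its log2 fold change was -0.23 (adjusted p = 0.377). Wnt3, the ligand of Paneth cells, averaged 0.0545 FPKM in AIMD and 0.0301 FPKM in vehicle mice, and Wnt2b, a stromal ligand, 0.06 and 0.0433 FPKM. Wnt1, Wnt3a, Wnt7a, Wnt8a and Wnt9b were listed at 0 in all mice.

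Among R-spondins and their receptors, 1 of 3 tested genes was called. Rspo3, a stromal R-spondin, was 0.860 ± 0.226 FPKM in AIMD and 2.35 ± 1.63 FPKM in vehicle mice, just past the threshold (log2 fold change -0.84, limma adjusted p = 0.0497). Vehicle mouse 8 had the highest Rspo3 at 4.77 FPKM, and without it the log2 fold change was -0.68 (adjusted p = 0.0831); 13 of the 15 single-mouse removals lost the call. Rspo1 was 0.551 ± 0.240 against 0.874 ± 0.473 FPKM (adjusted p = 0.201). Lgr4, the R-spondin receptor of wider expression, stood at 18.2 ± 3.73 and 19.0 ± 3.69 FPKM (adjusted p = 0.769), far above the level of Lgr5.

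Wnt receptors went both ways, with 2 of 8 tested genes higher and 1 lower. Of the higher genes, Fzd3 was 0.759 ± 0.201 FPKM in AIMD and 0.268 ± 0.0972 FPKM in vehicle mice, but it reached 0.5 FPKM in the 7 AIMD mice and in 0 vehicle mice, so it was tested only because of the group where it was high and its call is no support for a difference. Fzd1 rose from 0.891 ± 0.322 to 1.54 ± 0.385 FPKM (limma adjusted p = 0.0128), a call that was lost on both clock-gene sides. Ror2, a receptor for Wnt5a, fell from 2.47 ± 1.17 to 0.721 ± 0.218 FPKM, with no overlap (log2 fold change -1.21, adjusted p = 0.000473). Fzd5, the most abundant Frizzled gene here, was 15.9 FPKM in both groups, and Lrp6, the canonical co-receptor, was 6.83 ± 1.49 and 6.60 ± 1.49 FPKM. Of 3 tested secreted inhibitors and their receptors, Kremen2, a receptor for Dkk proteins, fell from 4.27 ± 1.58 to 1.44 ± 0.365 FPKM (log2 fold change -1.24, adjusted p = 0.000188).

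Inside the cell, 3 of 14 tested genes of the destruction complex and Dishevelled were called. Axin1, the constitutive relative of Axin2, rose from 5.21 ± 1.28 to 8.24 ± 1.68 FPKM (log2 fold change 0.62, limma adjusted p = 0.00415). Csnk1e, a kinase of the pathway and of the clock, fell from 3.15 ± 1.58 to 1.40 ± 0.335 FPKM (log2 fold change -0.86, adjusted p = 0.00465), and Tnks2, a tankyrase that marks Axin proteins for degradation, fell from 16.3 ± 1.83 to 12.9 ± 1.84 FPKM (adjusted p = 0.0274). The Tnks2 call was lost without AIMD mouse 2, 5 or 6 or without vehicle mouse 6, and on both clock-gene sides. Ctnnb1, which encodes beta-catenin, was 231 ± 28.3 and 183 ± 35.9 FPKM and missed the threshold (log2 fold change 0.35, adjusted p = 0.0513).

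Of 10 tested TCF factors and cofactors, 1 was higher and 2 were lower. Pygo2, a beta-catenin cofactor, fell from 14.1 ± 2.84 to 9.82 ± 1.09 FPKM (limma adjusted p = 0.00573), a call that was lost on both clock-gene sides. Tcf7l1, a TCF factor that mostly represses, fell from 3.27 ± 1.15 to 1.88 ± 0.665 FPKM (adjusted p = 0.0211). Ctbp1, a corepressor, was called higher (21.3 ± 2.27 against 16.9 ± 3.54 FPKM, adjusted p = 0.0483), but 12 of the 15 single-mouse removals lost that call, and its log2 fold change was -0.01 in the high Arntl mice. Tcf7l2, the main TCF factor of the intestinal epithelium, was 14.8 ± 6.51 and 19.6 ± 7.03 FPKM and did not pass (adjusted p = 0.211).

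Of the other Wnt target and feedback genes, 5 of 17 tested were higher and 3 lower. Hnf4a, a transcription factor of differentiated enterocytes, was 118 to 188 FPKM in AIMD mice and 43.9 to 85.9 FPKM in vehicle mice, without overlap (log2 fold change 1.25, limma adjusted p = 4.6e-05). Nkd2, a Dishevelled-binding inhibitor, fell from 2.44 ± 1.94 to 0.826 ± 0.240 FPKM (adjusted p = 0.00511), with vehicle mouse 8 at 7.15 FPKM and a log2 fold change of -0.78 without it. Jun, a component of AP-1, fell from 27.0 ± 5.97 to 18.1 ± 3.49 FPKM (adjusted p = 0.00815). Of the partners and relatives of Myc, cyclin D1 and Sox9, 4 of 11 were higher and 7 did not pass. Mxd1, a Myc antagonist of differentiating cells, rose from 84.1 ± 45.7 to 173 ± 39.6 FPKM (log2 fold change 1.13, adjusted p = 0.00179). Max, the shared partner of Myc and Mxd1, rose from 89.6 ± 45.4 to 162 ± 35.9 FPKM (log2 fold change 0.96, adjusted p = 0.00475). Cdkn1a, which encodes the cyclin kinase inhibitor p21, rose from 144 ± 32.1 to 231 ± 35.3 FPKM (log2 fold change 0.70, adjusted p = 0.00204). In the low Arntl mice Mxd1 (0.95, limma adjusted p = 0.0569), Max (0.60, adjusted p = 0.161) and Cdkn1a (0.70, adjusted p = 0.06) kept their direction but did not pass.

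Of 18 proliferation genes, all tested, 2 were higher and 1 lower, beside 19.4% higher and 16.7% lower among all genes tested. Their median log2 fold change was 0.05. Pcna, the replication clamp, rose from 19.5 ± 2.61 to 25.0 ± 2.74 FPKM (limma adjusted p = 0.0180), a call that was lost on both clock-gene sides (adjusted p = 0.112 and 0.177). Mki67 (5.47 ± 0.669 against 4.08 ± 1.34 FPKM, adjusted p = 0.0441) and Mcm2 (5.25 ± 1.70 against 7.27 ± 1.38 FPKM, adjusted p = 0.0365) passed in opposite directions, and 11 and 10 of the 15 single-mouse removals lost their calls.

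Among 17 other tested genes of stem cells and the crypt base, 2 were higher and 4 lower. Cd44, a hyaluronan receptor of crypt cells and a Wnt target, was 5.54 to 11.2 FPKM in AIMD mice and 15.4 to 27.0 FPKM in vehicle mice. The groups did not overlap, and the log2 fold change was -1.30 (limma adjusted p = 1.7e-05). Soat1, a cholesterol acyltransferase of the stem cell signature, fell from 5.31 ± 0.780 to 3.10 ± 0.333 FPKM (log2 fold change -0.68, adjusted p = 0.000173), and Aldh1a1, a retinoic acid-forming enzyme, rose from 553 ± 169 to 926 ± 149 FPKM (log2 fold change 0.79, adjusted p = 0.00348).

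The ephrin system of the crypt was partly called. Efnb1, a membrane ligand of Ephb2 and Ephb3, rose from 10.7 ± 3.00 to 15.3 ± 2.69 FPKM (log2 fold change 0.53, limma adjusted p = 0.0148), a call that was lost on both clock-gene sides. Efnb2 was 42.2 ± 9.60 and 34.9 ± 4.70 FPKM and did not pass (adjusted p = 0.171). Ephb4, best known as the ephrin-B2 receptor of veins, fell from 18.1 ± 4.32 to 9.35 ± 1.90 FPKM (log2 fold change -0.90, adjusted p = 0.000669). In the 15 mice the summed FPKM of 6 endothelial markers (Pecam1, Cdh5, Kdr, Tek, Vwf and Emcn) was 4.94 to 7.45 with AIMD and 5.29 to 9.63 with vehicle, and the smallest limma adjusted p of the 4 tested was 0.0904, for Emcn. Their part in the Ephb4 difference was not tested.

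For niche signals beside Wnt, the BMP list held more lower than higher calls. The Notch list held only 1 call, near the share called lower among all genes. Among all genes tested, 16.7% were called lower and 19.4% higher. Over all the lists together, the direction with more calls depended on the scaling. In the Notch list 1 of 7 tested genes was lower, Hes1, the main Notch target of progenitors, which fell from 91.1 ± 28.7 to 34.4 ± 11.6 FPKM without overlap (log2 fold change -1.39, limma adjusted p = 0.000139). Atoh1, the secretory lineage factor that Hes1 represses, was 12.3 FPKM in both groups (adjusted p = 0.614). In the BMP list 1 of 14 tested genes was higher and 6 were lower, with a median log2 fold change of -0.33. Bmp2, an epithelial ligand, rose from 22.7 ± 7.72 to 44.0 ± 14.1 FPKM (log2 fold change 0.95, adjusted p = 0.00504). Id3 and Id1, common BMP targets, fell from 32.8 ± 10.8 to 12.8 ± 2.29 FPKM (log2 fold change -1.27, adjusted p = 0.000111) and from 251 ± 94.2 to 126 ± 39.7 FPKM (log2 fold change -0.96, adjusted p = 0.00335).

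**Figure D4:**
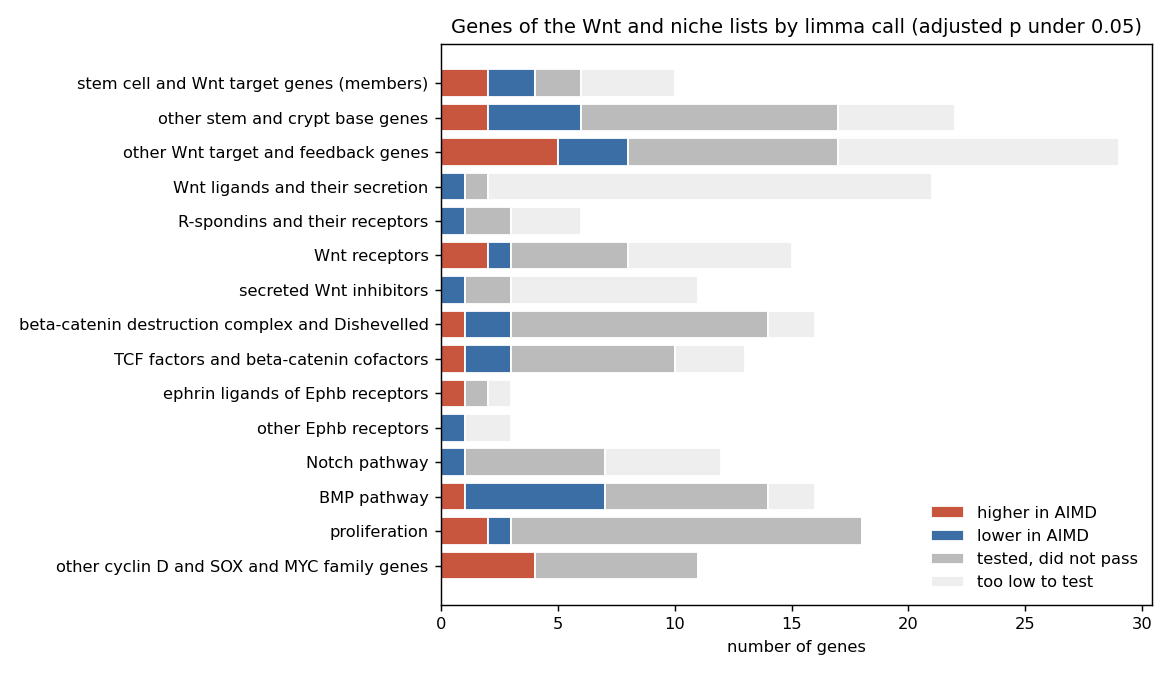
Number of genes in each list (horizontal axis) called higher in AIMD (red), called lower (blue), tested without passing (grey) or too low to test (light grey), by limma at an adjusted p under 0.05. The 10 stem cell and Wnt target genes have 2 higher, 2 lower, 2 not passing and 4 too low, and the BMP list has 6 lower and 1 higher. Among all genes tested, 19.4% were called higher and 16.7% lower.

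Epithelial content was read from 8 epithelial markers (Epcam, Cdh1, Krt8, Krt18, Krt19, Vil1, Cdx2 and Cldn7), whose sum was 3280 to 4840 FPKM in AIMD mice and 3050 to 4100 FPKM in vehicle mice, with Krt8, Vil1 and Cldn7 higher and Krt18 lower. Of 8 surface colonocyte markers (Krt20, Slc26a3, Car1, Car4, Aqp8, Ceacam1, Ceacam20 and Cyp2c55), Ceacam1 and Ceacam20 were higher, Aqp8 and Cyp2c55 were lower, and the sums overlapped at 26100 to 35600 and 26700 to 37800 FPKM. Car1, at a mean of 26500 FPKM in AIMD and 22800 FPKM in vehicle mice, made up most of these sums. Of the macrophage markers, Csf1r (1.39 ± 0.425 against 0.633 ± 0.434 FPKM) and Cd68 (1.84 ± 0.422 against 1.17 ± 0.286 FPKM) were higher, and Adgre1 (1.16 ± 0.352 against 0.767 ± 0.483 FPKM; SD, n = 7 and 8) did not pass. Csf1r reached 0.5 FPKM in all 7 AIMD mice but only in part of the vehicle mice. It met the filter through the group where it was high, so its call is no support for a difference. The part of these cell types in the results for the 10 genes was not tested.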

How the data were processed

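The authors sequenced poly-A RNA of each cecum (stranded libraries) and deposited 1 table of FPKM values per gene and mouse. The submitters' processing notes name STAR, featureCounts, DESeq2 and the genome build GRCm38, with no versions. All columns belonged to samples of the study. The main test used the FPKM values and no count model. Of 45808 rows, 4 with a repeated symbol were left out, and 27 had date-like symbols and no gene name.

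Further scaling used size factors (median of ratios to the geometric mean, over 13594 genes), all of which rounded to 1.0, and log2(FPKM + 0.5) was tested with limma 3.58.1 (lmFit, eBayes with trend) in R 4.3.3, AIMD against vehicle, for genes with at least 0.5 FPKM in at least 7 mice. P-values were two-sided with Benjamini-Hochberg adjustment over all 11983 genes tested and a threshold of 0.05. A fold change on this scale understates the change of low genes. Single genes were also tested by exact permutation of the mice (Python 3.11.15, scipy 1.17.1). Correlations used 100000 permutations. The pipeline was tested on simulated data.

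Each FPKM is a whole number of reads divided by length and depth, so reads were recovered from the steps of the values, within 0.02 of a whole number, with GENCODE M21 lengths for 68.0% of genes and another length for 31.9%. They served for depth (median 11490138 reads on genes in AIMD and 8002008 in vehicle mice) and for limma voom. The depth that divides the deposited values was not the count of reads on genes (5162136 against 6578934 in vehicle mouse 5). Because the further size factors rounded to 1.0, the fit without them was in effect the main fit. Coordinates are those of GENCODE M21. Of all windows of 50 transcript bases, 3.55% in Olfm4, 0.647% in Lgr5, 0.182% in Ephb2 and 0.118% in Ephb3 also occurred in another gene. No pair of mice was a duplicate (highest correlation 0.9857).

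The study modelled time of sacrifice, which the labels used here do not give. The clock-gene sides came from the first principal component of 14 clock genes, which held 92.2% of their variance after centring within groups. The interaction and the difference between sides were added after the data were examined. The members and the gene lists were chosen with earlier results of these data known. Named list genes were up to 3 per list with the smallest adjusted p among those called, and further genes are named where their low level or role in the pathway matters. Replicates were separate animals. Alternatives were other scalings, pseudocounts and filters, a rank-sum test, voom, clock-gene covariates, a replicate block, each clock side, and each mouse left out. Some marker genes and the sums that include them are not reported here.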

Additional observations from a re-analysis of the deposited data

Results flagged for a closer look

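Olfm4 was at 0.186 FPKM in vehicle mouse 7, against 0 in the other 7 vehicle mice. Its gap to the other mice exceeded Dixon's 95% critical value for 8 samples, but with all the other mice at 0 any value above 0 would do so, and about 4 reads lie behind it. Of the 19 groups of values checked (the members in each group of mice, where values varied), this was the 1 beyond its critical value, and chance alone puts about 1 in 20 there.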

How the results depend on the processing

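The count of stem cell and Wnt target genes called stayed at 2 higher and 2 lower under every scaling, pseudocount, filter, test and covariate tried and without any 1 mouse (range 2 to 2 in both directions). It changed only within the clock-gene sides, which hold fewer mice: 0 higher and 1 lower with low Arntl, and 1 lower with high Arntl. Of the Wnt and niche list genes, 8 were higher and 12 lower with high Arntl and 9 higher and 18 lower with low Arntl. With the clock-gene axis as covariate 26 were higher and 27 lower (28 and 31 with the axis not centred). Calls over all genes also rose with this covariate, to 2723 higher and 2401 lower (2732 and 2395 with the axis not centred). Leaving out 1 mouse gave 15 to 21 higher and 19 to 24 lower. With high Arntl mice only, Ascl2 (0.18), Ephb2 (-0.08) and Ctbp1 (-0.01) reversed their log2 fold change; the cause was not tested. Leaving out 1 mouse moved Smoc2 between -1.02 and -0.83, Sox9 between -0.64 and -0.48, Myc between 0.63 and 0.82 and Ccnd1 between 0.53 and 0.71 on the log2 scale, with adjusted p up to 0.0299. Of the 30 named list genes, 12 passed on both clock-gene sides, 13 on 1 side and 5 on neither (Fzd1, Efnb1, Pygo2, Tnks2 and Pcna), and 6 lost their call without at least 1 mouse. The 13 were Aldh1a1, Axin1, Cdkn1a, Ctbp1, Id1, Jun, Max, Mcm2, Mki67, Mxd1, Rspo3, Tcf7l1 and Wls. Other scalings, pseudocounts, filters, tests or the block ended the call of Rspo3, Mki67, Ctbp1, Mcm2, Wls, Tnks2, Tcf7l1 and Pcna (the last at 0.31 with the block, adjusted p = 0.0525). Over all genes, the 2323 higher and 1998 lower calls became 1034 and 848 with high Arntl and 1344 and 1137 with low Arntl. Replicate numbers did not pair the mice (correlations of same-numbered mice from -0.35 to 0.43, and 1 of 7 AIMD mice closest to its own number). With the replicate number as a block, which leaves out vehicle mouse 8, Smoc2 was at -0.85 (adjusted p = 0.00703), Sox9 at -0.64, Myc at 0.63 and Ccnd1 at 0.64, with 2 members higher, 2 lower, and 2389 higher and 2262 lower calls over all genes. Depth limits Lgr5, Ascl2, Axin2, Ephb3 and Olfm4, each with at most 85 reads in a mouse.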
